A study of Homo sapiens with 44 samples.

Results

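The genes described here are 54 genes of G2 phase and mitosis, taken by symbol from a list set by gene function, which was drawn up with earlier results of these data known. All 54 are among the 18797 genes of the table from the GAS41 experiment and among the 21159 genes of the table from the doxorubicin experiment. All 54 passed the filter on low reads in both tables (at least 10 reads in at least 3 libraries), so every member was tested. The libraries come from HCT116, a human colon cancer cell line, described in the labels as p53+/+. In the doxorubicin experiment 3 libraries are from cells given 500 nM doxorubicin (Dox), a topoisomerase poison that breaks DNA, and 3 are from cells given the solvent DMSO, and the exposure time is not given in the sources used here. The GAS41 experiment has 4 groups of 3 libraries, all without drug in the labels. WT is unedited HCT116, and GAS41-KO is the knockout of GAS41, the histone reader made by the gene YEATS4. The wt rescue group is GAS41-KO cells with stable expression of normal GAS41 tagged with GFP and Flag, and the mut rescue group is GAS41-KO cells with stable expression of the same tagged protein carrying Y74A and W93A, in the YEATS domain that binds acylated histone tails. The labels call the replicates biological and do not say whether the edited or rescued cells are 1 clone, several clones or a pool.

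A cell enters mitosis when CDK1, bound to cyclin B or cyclin A, is switched on by CDC25 phosphatases and held on by PLK1 and Aurora A. Chromosomes are then condensed, kinetochores join centromeres to the spindle, kinesins move and shape the spindle, and the spindle checkpoint holds back the anaphase-promoting complex and its activator CDC20 until every chromosome is attached. Messenger RNAs of these proteins are made mostly in G2 and mitosis. The MuvB core with B-MYB (the product of MYBL2) and FOXM1 switches their genes on, and the same core in the DREAM complex holds them down in resting cells and in cells where p53 has raised p21, the product of CDKN1A. Both forms meet the promoter at the cell cycle genes homology region, often beside CCAAT boxes bound by NF-Y.

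The 12 GAS41 libraries held 16857982 to 18546135 reads each, and the 6 doxorubicin libraries 17442035 to 18894312. Levels below are normalized reads, which are reads divided by the library's size factor, and are given as mean ± SD of 3 libraries. The targeted gene YEATS4 had 625, 608 and 621 normalized reads in the WT libraries, 386, 337 and 325 in GAS41-KO, 2887, 3499.6 and 3372 in wt rescue and 2551, 2358 and 2538 in mut rescue. Reads for YEATS4 therefore remained in GAS41-KO, and the labels do not say which part of the gene was edited, so this level does not report the loss of the protein. CDKN1A had 5599 ± 367 normalized reads in DMSO and 60676 ± 1604 with Dox, a 10.8-fold rise. It also rose 1.35-fold in GAS41-KO, from 3719.9 ± 80.6 to 5019.8 ± 87.9. In wt rescue CDKN1A was at 4851 ± 297, above WT, and in mut rescue at 5768 ± 528. A link between CDKN1A and the levels of the members was not tested. Of 9 epithelial markers 7 had a mean of at least 10 normalized reads in every group except Dox, where 8 had. In single libraries the summed level of these markers was 56807 to 60435 in WT, 63529 to 65389 in GAS41-KO, 76416 to 89282 in wt rescue and 65875 to 79893 in mut rescue, and it was 72256 to 87982 in DMSO and 146030 to 165192 with Dox. CDX1 was at 0 in every library, or not listed, in all groups but Dox, and so was VIL1 in wt rescue, and the summed levels of 4 endothelial markers and 6 blood markers stayed at or below 60.9 normalized reads in every library. The sum of 7 fibroblast markers was 161 to 406, with LUM at 0 or not listed in every group.

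The promoters of the members hold these elements more often than promoters at large, and 6 of them are shown because their genes give the contrasts described below: strong falls with doxorubicin (PLK1, CCNB1, CCNB2 and CDC20), a smaller fall (KIF23) and no called change (CDK1). Each is the 120 bases before the annotated start, from RefSeq (GRCh38.p14), 5′ to 3′ on the gene's strand, with TTTGAA (or its reverse complement TTCAAA) and CCAAT (or ATTGG) in capitals.
PLK1 (chr16:23678769-23678888, plus strand): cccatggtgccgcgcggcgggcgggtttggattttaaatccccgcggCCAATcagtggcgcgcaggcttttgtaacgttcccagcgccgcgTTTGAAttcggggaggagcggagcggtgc
CCNB1 (chr5:69167030-69167149, plus strand): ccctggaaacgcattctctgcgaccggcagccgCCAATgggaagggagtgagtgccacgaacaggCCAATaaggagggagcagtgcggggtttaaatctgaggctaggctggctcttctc
CCNB2 (chr15:59105026-59105145, plus strand): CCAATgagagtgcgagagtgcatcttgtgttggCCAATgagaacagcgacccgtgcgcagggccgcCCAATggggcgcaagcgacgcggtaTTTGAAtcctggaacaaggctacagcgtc
CDC20 (chr1:43358861-43358980, plus strand): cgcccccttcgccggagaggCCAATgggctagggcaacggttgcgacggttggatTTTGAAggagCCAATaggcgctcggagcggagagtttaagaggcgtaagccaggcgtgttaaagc
KIF23 (chr15:69414229-69414348, plus strand): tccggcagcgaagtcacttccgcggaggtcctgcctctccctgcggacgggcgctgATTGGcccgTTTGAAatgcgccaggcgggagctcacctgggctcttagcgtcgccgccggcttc
CDK1 (chr10:60778358-60778477, plus strand): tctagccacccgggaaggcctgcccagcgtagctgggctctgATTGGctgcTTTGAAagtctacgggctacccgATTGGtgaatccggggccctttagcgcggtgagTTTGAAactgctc

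With the last base before the start at -1, TTTGAA begins at -29 in both PLK1 and CCNB2, at -65 in CDC20, at -55 in KIF23, and at -69 and -13 in CDK1. The 120 bases of CCNB1 hold neither TTTGAA nor TTCAAA but have CCAAT at -87 and -55. CCNB2 has 3 CCAAT boxes, at -120, -87 and -54. Of the 54 members 47 matched the promoter table, with 57 promoters, since some genes have more than 1 annotated start. In the window of 300 bases (250 before the start and 50 after), TTTGAA on either strand was in 64.9% of the 57 member promoters and in 15.2% of all 35116 promoters of the table. CCAAT on either strand was in 73.7% and 34.6%, and the variant TTCGAA, which is its own reverse complement, was in 5.26% and 1.45%. These are matches of letters and not measured binding. Forms of the homology region other than TTTGAA and TTCGAA were not searched. With doxorubicin the median log2 difference was -0.86 for the 34 genes with TTTGAA in at least 1 promoter, of which 32 fell, and -0.74 for the 13 genes without it, of which 11 fell. In GAS41-KO against WT the order was the other way, with a median of -0.24 for the 34 genes with TTTGAA, of which 15 were lower, and -0.39 for the 13 without it, of which 8 were lower. The 13 genes without TTTGAA include BUB1 and CDC25B, which have TTCGAA in a promoter.

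Doxorubicin lowered nearly the whole set. Of the 54 members 49 fell and 0 rose, with a median log2 difference of -0.83, against -0.00893 over all 14195 genes tested. Of all tested genes 33.4% were called lower and 32.3% higher (limma, adjusted p under 0.05). No member had an unadjusted p under 0.05 in the upward direction, and limma's voom on the recovered reads also called 0 higher. In 26 members the mean fell at least 2-fold and in 14 at least 3-fold. The 5 members that were not called are CDK1, PTTG1, ESPL1, FOXM1 and MYBL2. In 49 members every Dox library lay below every DMSO library, which was so for 35.2% of all tested genes. These 49 include ESPL1 and leave out MKI67, which was called with groups that overlapped. These are bulk libraries, in which fewer cells in G2 and mitosis and less of each RNA per such cell cannot be told apart.

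**Figure D1:**
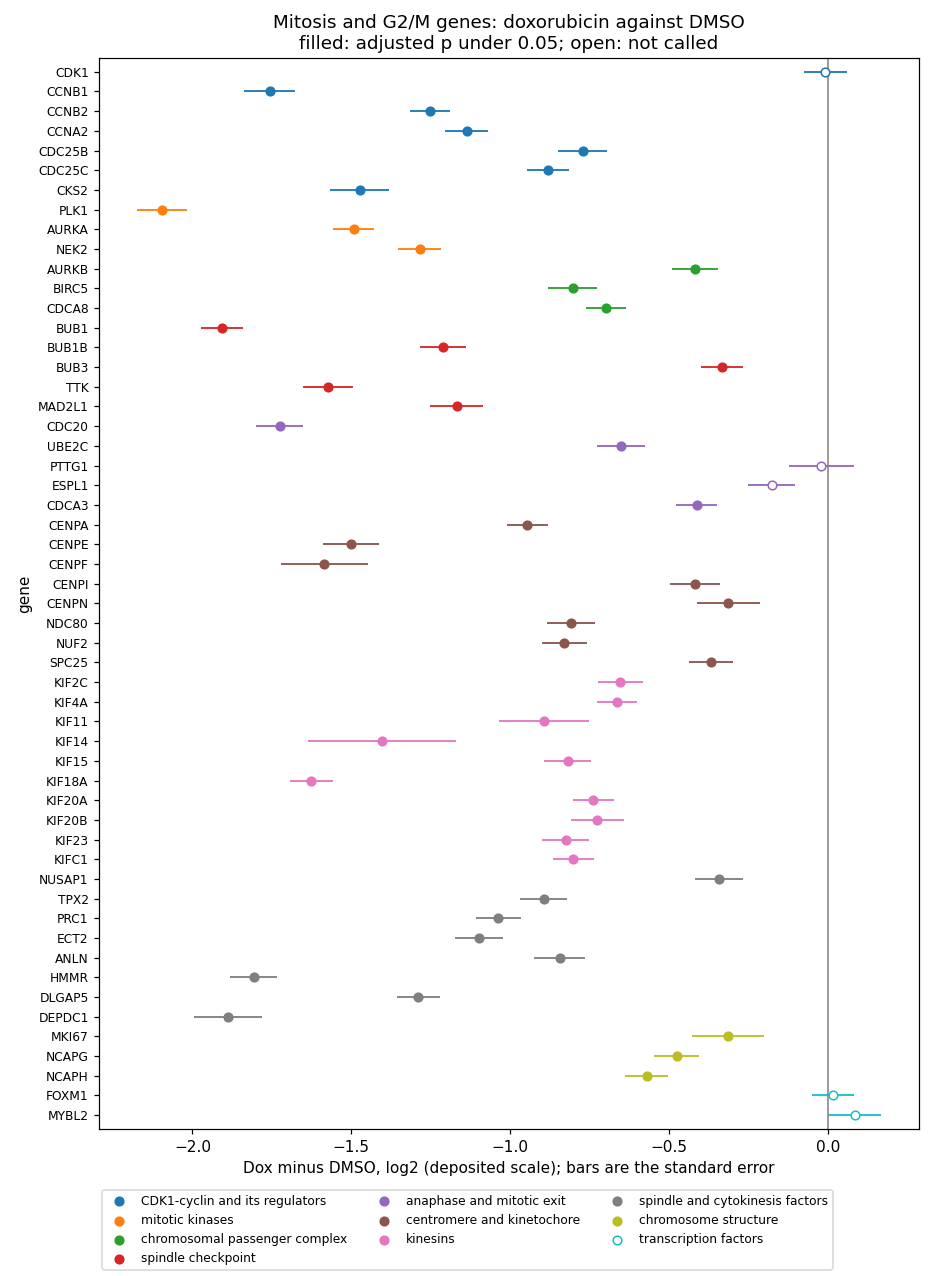
Log2 difference between Dox and DMSO (horizontal axis, deposited scale) for each of the 54 members (vertical axis), with standard errors as bars and colours by role. Filled points passed the test and open points did not, and the open points, CDK1, PTTG1, ESPL1, FOXM1 and MYBL2, lie at or near 0 on the right while PLK1 lies at the far left at -2.10.

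Among CDK1, its cyclins and their regulators, 6 of 7 fell and CDK1 itself was not called. CCNB1, which encodes the cyclin that carries CDK1 into mitosis, had 7486, 6154 and 6381 normalized reads in the DMSO libraries and 1837, 1856 and 1783 in the Dox libraries. This 3.66-fold fall left no overlap between the groups (log2 difference -1.76, SE 0.08, adjusted p = 9.2e-10). CCNB2, the other B-type cyclin measured, fell 2.73-fold, from 2145 ± 54.3 to 787 ± 22.6. CCNA2, the cyclin of S and G2 phase, had 2905, 2906 and 3163 in DMSO and 1209.9, 1279 and 1262 with Dox, a 2.39-fold fall (adjusted p = 1e-08). CDK1 stood apart from its partners. Its libraries had 3483, 3136 and 3384 in DMSO and 3369, 3289.6 and 3277 with Dox, and the groups overlapped (log2 difference -0.00806, SE 0.0683, adjusted p = 0.924). CKS2, a small protein that binds CDK1, fell 3.2-fold, from 2746 ± 397 to 859 ± 74.

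The phosphatases that remove the inhibitory phosphates from CDK1 fell as well. CDC25C had 623, 523 and 540.4 normalized reads in DMSO and 222, 234 and 226 with Dox, 2.47-fold lower (adjusted p = 1.17e-07). CDC25B had 6346, 5923 and 5343 in DMSO and 3395, 3383 and 3254 with Dox, 1.76-fold lower (adjusted p = 1.38e-06). All Dox libraries were below all DMSO libraries for both genes.

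The mitotic kinases held the steepest fall of the set. PLK1, the kinase that drives mitotic entry, spindle building and cytokinesis, had 3909, 3526 and 3199.6 normalized reads in DMSO and 657, 728 and 649 with Dox. Its mean fell 5.23-fold (log2 difference -2.10, SE 0.0793, adjusted p = 1.73e-10). AURKA, the centrosome kinase that activates PLK1, had 2333, 2159 and 2248 in DMSO and 671, 701 and 650.1 with Dox, 3.33-fold lower. NEK2, which splits the centrosome pair, fell 3.21-fold, from 1089.6 ± 89.9 to 339.7 ± 0.701. The chromosomal passenger complex, which corrects faulty attachments at the centromere, fell less. Its kinase AURKB had 2091, 2043 and 1884 in DMSO and 1358, 1581 and 1418 with Dox, 1.38-fold lower (log2 difference -0.42, SE 0.0734). Its subunit BIRC5 (survivin) had 5555, 5254 and 5133 and 2878, 3256 and 2753, 1.79-fold lower. Borealin (CDCA8) fell 1.75-fold. Neither AURKB nor the other subunits had overlapping groups.

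All 5 spindle checkpoint genes fell, over a wide range. BUB1, the kinase that loads checkpoint proteins on kinetochores, had 3092, 2873 and 3149 normalized reads in DMSO and 676, 647 and 679 with Dox, 4.55-fold lower (log2 difference -1.91, SE 0.0656, adjusted p = 7.15e-11). BUB1B (BUBR1), part of the inhibitor of CDC20, had 2561, 2498 and 2893 in DMSO and 1042, 976 and 1074 with Dox, 2.57-fold lower. BUB3, which carries BUB1 and BUBR1 to kinetochores, had 5881, 5694 and 6027 and 4525, 4695 and 4627, 1.27-fold lower (adjusted p = 0.000681). BUB3 thus had the smallest fall of the 5. TTK, the kinase that starts the checkpoint, fell 3.7-fold to 528 ± 24.3, and MAD2L1, the other CDC20 inhibitor in the list, fell 2.43-fold to 1424 ± 25.8.

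Genes of anaphase and mitotic exit were split. CDC20, the activator of the anaphase-promoting complex, had 7214, 7053 and 6563 normalized reads in DMSO and 1944, 2101 and 1833 with Dox, 3.54-fold lower (log2 difference -1.73, SE 0.0738). UBE2C, the ubiquitin-conjugating enzyme of that complex, had 3000.4, 2708 and 2569 in DMSO and 1660.3, 1793 and 1592 with Dox, 1.64-fold lower. CDCA3 (Tome-1), a trigger of mitotic entry, fell 1.45-fold. Securin and separase, the inhibitor and the protease that together control sister chromatid cohesion, were not called. PTTG1 (securin) had 3315, 2591 and 2522 in DMSO and 2449, 3041 and 2782 with Dox, so the groups overlapped (adjusted p = 0.873). ESPL1 (separase) had 1784 ± 175 in DMSO and 1551 ± 40.8 with Dox (log2 difference -0.18, SE 0.0752, adjusted p = 0.0533).

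**Figure D2:**
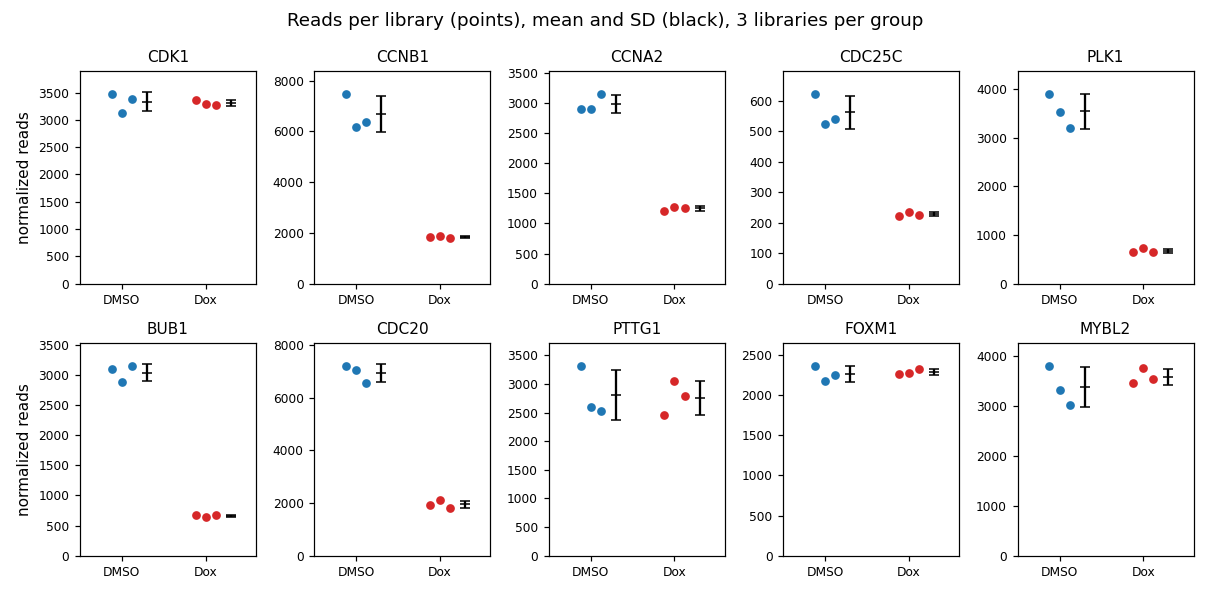
Normalized reads (vertical axis, from 0) of 10 members in each DMSO (blue) and Dox (red) library, with the mean and SD of 3 libraries in black. The Dox points lie below the DMSO points for CCNB1, CCNA2, CDC25C, PLK1, BUB1 and CDC20 and among them for CDK1, PTTG1, FOXM1 and MYBL2.

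All 8 centromere and kinetochore genes fell with doxorubicin. CENPA, the histone variant that marks the centromere, had 513, 538 and 504 normalized reads in DMSO and 177, 212 and 182 with Dox, 2.73-fold lower. CENPE, the kinetochore motor that brings chromosomes to the metaphase plate, had 1364, 1226 and 1562 and 417, 373 and 321, 3.74-fold lower. CENPF, a large kinetochore and dynein-linked protein, had 4545, 6387 and 7196 and 2097, 1871 and 1595, 3.26-fold lower (log2 difference -1.58, SE 0.138). The first DMSO library was low in CENPF, yet every Dox library lay below it. Of the NDC80 complex that grips microtubules, NDC80 fell 1.99-fold, NUF2 2.13-fold and SPC25 1.38-fold. Of the inner kinetochore, CENPI fell 1.68-fold and CENPN fell 1.29-fold, and the call for CENPN was lost without Dox replicate 1 (adjusted p = 0.0503).

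All 10 kinesins fell. KIF18A, which trims microtubule ends at the plate, had 1289, 1278 and 1398 normalized reads in DMSO and 329, 316 and 275 with Dox, 4.31-fold lower (log2 difference -1.63, SE 0.0687). KIF20A, a motor of the central spindle, had 2630.3, 2436 and 2592 and 1471, 1448 and 1429, 1.76-fold lower. KIF20B, also needed late in division, had 1540.4, 1569 and 1897 and 975, 959 and 854, 1.8-fold lower. None of these 3 had overlapping groups. KIF14, a cytokinesis motor, was the most variable member, with 444, 1055 and 1326 in DMSO and 291, 184 and 199 with Dox. Its mean fell 4.19-fold (log2 difference -1.40, SE 0.233), and without DMSO replicate 1, the low library, the log2 difference was -1.78. KIF11 (Eg5), which pushes the spindle poles apart, fell 2.12-fold and its partner motor KIF15 2.13-fold. The centralspindlin motor KIF23 fell 1.89-fold, the minus-end motor KIFC1 1.87-fold, the chromokinesin KIF4A 1.71-fold and the depolymerase KIF2C (MCAK) 1.63-fold.

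All 8 spindle and cytokinesis factors fell. HMMR, a spindle pole protein, had 2199, 1803 and 2013 normalized reads in DMSO and 441, 449 and 422 with Dox, 4.59-fold lower (adjusted p = 3.61e-10). DEPDC1 had 1759, 2101 and 2530.2 and 504, 395 and 405, 4.9-fold lower. TPX2, which activates Aurora A on spindle microtubules, had 6672, 7214 and 7685 and 3778, 3878 and 3648, 1.91-fold lower. With PLK1, HMMR and DEPDC1 make the 3 largest falls by ratio of means. ECT2, which activates RhoA at the cleavage furrow, had 3427, 3494 and 3913 and 1676, 1473 and 1589, 2.29-fold lower. PRC1, the bundler of midzone microtubules, fell 2.16-fold, the furrow scaffold ANLN 1.86-fold, the spindle protein DLGAP5 2.76-fold and NUSAP1 1.29-fold. Among chromosome structure genes the condensin subunits NCAPH and NCAPG fell 1.57-fold and 1.42-fold. MKI67, the Ki-67 coat protein of mitotic chromosomes and a common proliferation marker, had 11287, 14352 and 16182 in DMSO and 11716, 10235 and 11256 with Dox. Its 1.26-fold lower mean passed the test (adjusted p = 0.0261) with groups that overlapped. The MKI67 call was lost without DMSO replicate 2 (adjusted p = 0.100), DMSO replicate 3 (0.113), Dox replicate 2 (0.102) or Dox replicate 3 (0.0549). It was also lost after quantile normalization (log2 difference -0.17, adjusted p = 0.264) and with voom scaled to library totals (-0.23, 0.136).

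The transcription factors of the program were not called lower with doxorubicin. FOXM1 had 2365, 2179 and 2246 normalized reads in DMSO and 2265, 2275 and 2331 with Dox (log2 difference 0.0162, SE 0.0654, adjusted p = 0.841). MYBL2 had 3808, 3332 and 3022 and 3462, 3767 and 3540.4 (log2 difference 0.084, SE 0.0841, adjusted p = 0.395). Both had overlapping groups, and both encode activators of mitotic genes.

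Other mitotic genes outside the set moved mostly the same way with doxorubicin. Of 83 such genes 62 fell and 9 rose, with a median log2 difference of -0.46. The 3 with the smallest p among those that fell are PSRC1, a spindle protein (970.2 ± 87.2 to 250.5 ± 21.0), BORA, the Aurora A cofactor that activates PLK1 (666 ± 43.9 to 167 ± 13.9), and SGOL2, a protector of centromeric cohesion (1207 ± 99.0 to 363 ± 48.1). Among those that rose are PKMYT1, an inhibitory kinase of CDK1 (1217 ± 180.0 to 1895 ± 86.7), the centromere gene CENPU (673 ± 36.8 to 939.7 ± 19.3) and LIN37, a MuvB subunit (149 ± 18.52 to 251 ± 45.1). Of 38 genes of G1/S and DNA replication 18 fell and 6 rose, with a median of -0.14. MCM6, a subunit of the replicative helicase, fell from 6054 ± 81.6 to 2452 ± 32.3, while PCNA, the replication clamp and a p53 target, rose from 4927 ± 178 to 11807 ± 644. These lists were compared by counts and medians only.

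In GAS41-KO the members were lower than in WT by smaller amounts. Of the 54, 28 fell and 2 rose, with a median log2 difference of -0.27, against -0.0084 over all 14505 genes tested. Of all tested genes 26.6% were called lower and 26% higher. All GAS41-KO libraries lay below all WT libraries in 44 members, which was so for 35.3% of tested genes. They lay above all WT libraries in 4 members, which was so for 33.7% of tested genes. In each GAS41-KO library 46 to 49 of the 54 members were below the WT mean. The spread of the wt rescue group, described below, enters the shared error: fitted with only the 6 libraries compared, 45 members were called lower and 4 higher, and with wt rescue replicate 1 as the only library of its group, 39 lower and 4 higher.

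**Figure D3:**
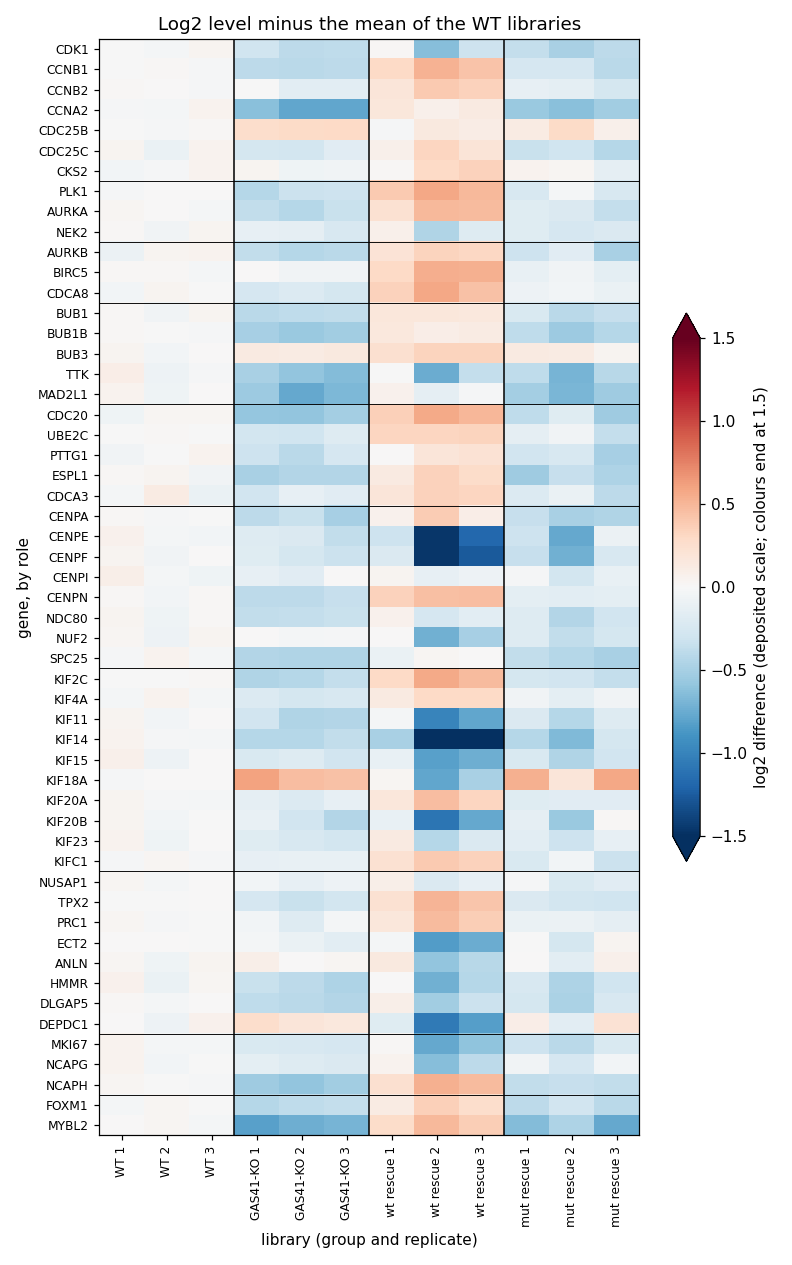
Log2 level of the 54 members (rows, by role) in each of the 12 GAS41 libraries (columns) minus the mean of the 3 WT libraries, blue for lower and red for higher, with the colour scale ending at 1.5. GAS41-KO and mut rescue columns are mostly pale blue, and the column of wt rescue replicate 1 is mostly red. Replicates 2 and 3 of wt rescue are split, each with 31 members above and 23 below the WT mean. Their darkest blue cells are those of KIF14, CENPE and CENPF.

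MYBL2, CCNA2 and MAD2L1 had the largest falls in GAS41-KO. MYBL2 had 2908, 2956 and 2827 normalized reads in WT and 1579, 1688 and 1723 in GAS41-KO, 1.74-fold lower (log2 difference -0.75, SE 0.0762, adjusted p = 5.79e-07). FOXM1 had 2242, 2342 and 2288 in WT and 1658, 1731 and 1762 in GAS41-KO, 1.33-fold lower (adjusted p = 0.000118). Both factors, which were not called with doxorubicin, were lower here in every library. CCNA2 had 2881, 2854 and 3047 and 1839.7, 1635 and 1637, 1.72-fold lower (log2 difference -0.73, SE 0.0622). CCNB1 had 5196, 5280.0 and 5143 and 3938, 3904 and 3936, 1.33-fold lower. CDK1 had 3014, 2968 and 3112 and 2425, 2265 and 2299, 1.3-fold lower (adjusted p = 0.0123). CDK1 and both cyclins showed no overlap of groups, while CCNB2, at 1935 ± 33.1 and 1789 ± 121, was not called. CDC25C had 417, 365 and 420.3 and 311, 307 and 342, 1.25-fold lower.

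Of the checkpoint genes MAD2L1 had 3295, 3018 and 3180.2 normalized reads in WT and 2127, 1797 and 1933 in GAS41-KO, 1.62-fold lower (log2 difference -0.66, SE 0.0752), the third largest fall. BUB1B had 3135, 3087 and 3044 and 2152, 2043 and 2106, 1.47-fold lower. TTK fell 1.55-fold and BUB1 1.33-fold, and BUB3 was not called, with 5995, 5682 and 5868 in WT and 6417, 6359 and 6498 in GAS41-KO. BUB3 was thus among the 4 members whose GAS41-KO libraries all lay above WT, the others being CDC25B, KIF18A and DEPDC1. Of the kinases PLK1 had 2906, 2967 and 2964 and 2147, 2334 and 2339, 1.3-fold lower. AURKA had 2172, 2124 and 2067 and 1605, 1534 and 1652, 1.33-fold lower. AURKB had 1531, 1683 and 1699 and 1230.1, 1173 and 1198, 1.36-fold lower. These kinases fell by similar amounts, whereas BIRC5, with 4611, 4608 and 4479.9 in WT and 4581, 4402 and 4412 in GAS41-KO, had overlapping groups and was not called.

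Of the 5 anaphase genes 4 fell in GAS41-KO. CDC20 had 5329, 5686 and 5712 normalized reads in WT and 3690.4, 3638 and 3879.8 in GAS41-KO, 1.49-fold lower (adjusted p = 2.73e-05). ESPL1 fell 1.41-fold, PTTG1 had 1814, 1869.9 and 1961 and 1483, 1389.8 and 1559, and UBE2C had 1891, 1922 and 1884 and 1546, 1513 and 1644. Securin and separase, not called with doxorubicin, were thus both called here. CENPA had 453, 439 and 444 and 307, 327 and 278, 1.46-fold lower, and CENPN, NDC80 and SPC25 fell 1.33-fold, 1.32-fold and 1.47-fold. CENPE had 1627, 1516 and 1490.5 and 1337, 1312 and 1159, with adjusted p = 0.324. CENPF had 8091, 7587 and 7865 and 6912, 6518 and 6269, with adjusted p = 0.345. Neither CENPE nor CENPF was called although the libraries did not overlap, and their SEs of 0.21 and 0.214 are set by the wt rescue libraries as well. NCAPH fell 1.51-fold, TPX2 1.23-fold, from 7633, 7671 and 7713 to 6400.1, 6041 and 6301, and DLGAP5 1.35-fold. HMMR fell 1.35-fold (adjusted p = 0.015), a call lost without GAS41-KO replicate 3 (0.0549) or WT replicate 1 (0.0556).

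Of 10 kinesins 2 fell in GAS41-KO, KIF2C (1.35-fold) and KIF4A (1.2-fold), and 1 rose. KIF18A had 1279, 1298 and 1299.8 normalized reads in WT and 2048, 1834 and 1809 in GAS41-KO, 1.47-fold higher (log2 difference 0.50, SE 0.146, adjusted p = 0.00831). The other member that rose was CDC25B, with 5401, 5333 and 5473 in WT and 6496, 6634 and 6669.5 in GAS41-KO, 1.22-fold higher (adjusted p = 0.00174). Both fell with doxorubicin. KIF20A had 2198, 2109 and 2095 and 1923, 1833 and 1943 (adjusted p = 0.0633). KIF20B had 2015, 1896 and 1948 and 1797, 1579.8 and 1398 (adjusted p = 0.222). ECT2 had 3864, 3861 and 3840.5 and 3783, 3573 and 3435 (adjusted p = 0.612). These 3 were not called, and neither was MKI67, at 19718, 18617 and 18641 in WT and 16195, 16102 and 15945 in GAS41-KO (adjusted p = 0.149), although all its GAS41-KO libraries lay below WT.

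The other mitotic genes were lower in GAS41-KO too, with 56 of 83 called lower, 2 higher and a median log2 difference of -0.33. Those with the smallest p are TRIP13, the ATPase that disassembles checkpoint complexes (1616 ± 19.6 to 861 ± 25.2), MIS18A, which prepares centromeres for CENPA (848 ± 25.9 to 451 ± 35.7), and SKA3, a kinetochore coupler (1308 ± 26.2 to 774 ± 47.0). The 2 that rose are LIN37 (105 ± 2.72 to 145 ± 20.9) and FZR1, the late activator of the anaphase-promoting complex (989 ± 61.7 to 1218 ± 78.7). Of 38 genes of G1/S and replication 34 were lower, with a median of -0.44. PRIM1, the primase subunit, fell from 1436 ± 59.0 to 662 ± 19.3, MCM10, which helps load the polymerase, from 2008 ± 74.0 to 1131 ± 30.1, and the helicase subunit MCM3 from 8278 ± 135 to 5208 ± 90.5.

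Most members were higher in cells given normal GAS41 than in GAS41-KO. In wt rescue 32 of 54 were higher and 10 lower than in GAS41-KO, with a median log2 difference of 0.43, against -0.0117 over all tested genes, of which 33% were called higher and 33% lower. The largest rises were MYBL2, with 3531, 4122 and 3788 normalized reads in wt rescue (2.29-fold over GAS41-KO, adjusted p = 3.9e-09), CDC20, with 7175, 8349.9 and 7941 (2.09-fold), and NCAPH, with 2401, 2964 and 2846 (2.06-fold). Each of these was above every GAS41-KO and every WT library. In 31 members all wt rescue libraries lay above all GAS41-KO libraries, which was so for 34.7% of tested genes. CCNB1 had 6437, 7552 and 7076, 1.79-fold over GAS41-KO. CCNA2 had 3306, 3082 and 3217, 1.88-fold over GAS41-KO. PLK1 had 3910.3, 4468 and 4184, 1.84-fold over GAS41-KO. All 5 anaphase genes, all 3 chromosomal passenger genes and both transcription factors rose, FOXM1 to 2507, 2968 and 2778. The rise was not particular to the members. Of the 83 other mitotic genes 55 were higher and 6 lower in wt rescue than in GAS41-KO (median 0.36). Of the 38 G1/S genes 36 were higher and 0 lower (median 0.70). The comparison of GAS41-KO with WT and that of wt rescue with GAS41-KO share the GAS41-KO libraries.

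The 3 wt rescue libraries did not behave alike. For 16 members replicate 1 was over 0.5 log2 above the mean of replicates 2 and 3, and for 3 of them, KIF14, CENPF and CENPE, by over 1. KIF14 had 1159, 337 and 404 normalized reads, CENPF 6702, 2756 and 3175 and CENPE 1211, 469 and 604. Replicates 2 and 3 were also the lower ones for KIF11 (2393, 1162 and 1364), KIF20B (1799, 837 and 1081) and ECT2 (3789, 2089 and 2238). MKI67 (19245, 11092 and 12489.7) and DEPDC1 (2306, 1187 and 1424) showed the same order of libraries. CDK1 followed, with 3057, 1887 and 2404, unlike CCNB1 and CCNB2, which were lowest in replicate 1. CCNA2 had the same order as CDK1 with a small spread (3306, 3082 and 3217). At the same time 27 members were lowest in replicate 1, among them AURKA (2506, 3044 and 3015), TPX2 (9009, 10950.3 and 10323), BIRC5 (5638, 6756 and 6670.1) and KIF20A (2422, 2991 and 2696).

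**Figure D4:**
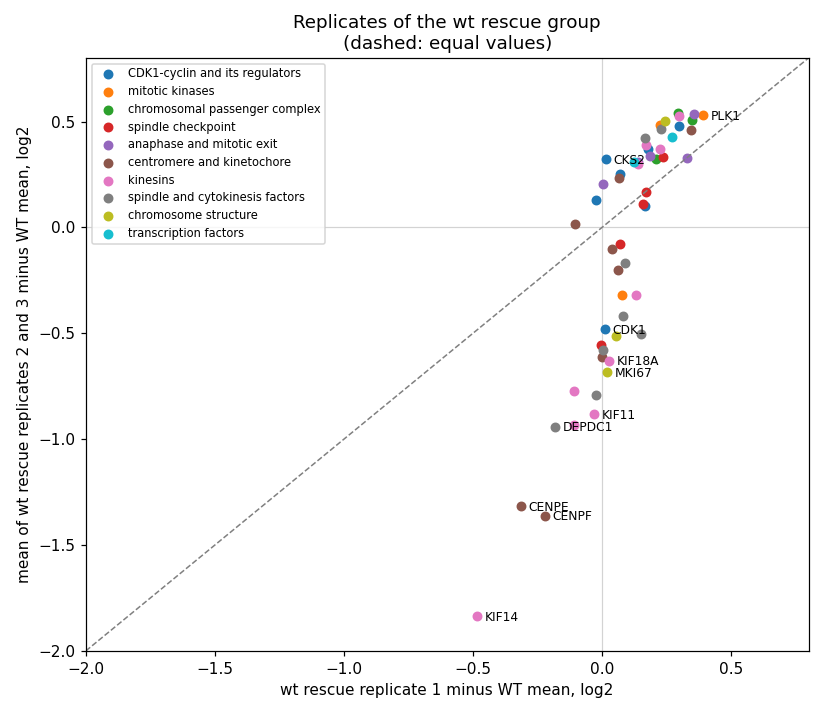
Each point is a member, coloured by role, with its log2 level minus the WT mean in wt rescue replicate 1 (horizontal axis) and in the mean of wt rescue replicates 2 and 3 (vertical axis). Points on the dashed line would have equal values, and KIF14, CENPF and CENPE lie over 1 log2 below it while PLK1 lies above it.

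The number of calls in the downward direction depended on which wt rescue libraries were used. The 10 members lower in wt rescue than in GAS41-KO were KIF14, KIF18A, DEPDC1, CENPF, CENPE, ECT2, NUF2, ANLN, KIF15 and CDC25B, led in log2 difference by KIF14 (1.93-fold, adjusted p = 0.00224), KIF18A (1.96-fold) and DEPDC1 (1.86-fold). Without wt rescue replicate 1, 14 members were lower and 32 higher. Without wt rescue replicate 2, 6 were lower, and without replicate 3, 7. With wt rescue replicate 1 alone in its group, 3 were lower (CDC25B, DEPDC1 and KIF18A) and 39 higher. In that last fit the lone library is assumed to vary like the other groups. KIF18A had 1321, 695 and 884 in wt rescue, against 1279, 1298 and 1299.8 in WT, and replicate 1 lay below all GAS41-KO libraries. CDC25B had 5316, 5983 and 5865.

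Across the members, some single libraries elsewhere were also set apart along the same genes. Across the 54 members the difference of wt rescue replicate 1 from replicates 2 and 3 had a Pearson correlation of -0.84 (Spearman -0.78) with that of mut rescue replicate 2 from its group's other libraries. With DMSO replicate 1 against the other DMSO libraries it was -0.68 (-0.51), and with Dox replicate 1 against the other Dox libraries 0.79 (0.66). These are descriptions across genes of libraries that share no sample, the latter pairs from a different sequencing platform, and genes are not independent replicates. KIF14, for example, had 1214, 1008 and 1372 normalized reads in mut rescue, lowest in replicate 2, and CENPE had 1217, 845 and 1439. The libraries compared here were not set in the plan, and other single libraries were not compared in this way. Over all tested genes the deviations of mut rescue replicate 2 from its group mean had a correlation of -0.53 with those of wt rescue replicate 1. The pattern is thus not limited to the members. With wt rescue replicates 2 and 3 the correlation was 0.48 and 0.40. Deviations from a group mean cancel within the group, so these values partly follow from the first. What sets this difference between libraries was not tested.

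Against WT, wt rescue libraries were higher in 25 members and lower in 15, with a median log2 difference of 0.13. Of all tested genes 27.4% were called higher and 22.7% lower. The split depends on scaling between libraries, being 18 higher and 19 lower after quantile normalization and 17 and 22 with voom scaled to library totals. The largest excesses over WT by ratio of means were PLK1 (1.42-fold), CDCA8 (1.41-fold) and CDC20 (1.4-fold), with BIRC5 next (1.39-fold), and the largest deficits KIF14 (2.65-fold), CENPE (2.03-fold) and CENPF (1.86-fold). Without wt rescue replicate 1, 21 members were lower and 27 higher. Without replicate 2, and likewise without replicate 3, 8 were lower and 22 higher. With wt rescue replicate 1 alone 11 were higher and 1 lower.

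Few members differed between mut rescue and GAS41-KO. Of the 54 members 1 was called higher and 0 lower in mut rescue than in GAS41-KO, with a median log2 difference of 0.0225, against 0.00826 over all tested genes, of which 5.92% were called higher and 9% lower. At an unadjusted p under 0.05, 7 were higher and 1 lower, and voom called 1 higher, with 0 lower on the deposited size factors and 1 lower on library totals. The member called was CENPN, an inner kinetochore subunit that reads CENPA, with 1327, 1330.4 and 1376 normalized reads in GAS41-KO and 1612, 1598 and 1607 in mut rescue (1.19-fold, log2 difference 0.23, SE 0.0553, adjusted p = 0.00965). Its level was still below WT, at 1816, 1745 and 1823. MYBL2 had 1792, 2054 and 1646 in mut rescue (log2 difference from GAS41-KO 0.12, SE 0.0762, adjusted p = 0.321). CCNB1 had 4359.9, 4362 and 3905, CCNA2 1948, 1847 and 1997 and CDK1 2327, 2116 and 2267. CDC20 had 4229, 4887 and 3795 and PLK1 2460.2, 2896 and 2461. In all 6 of these genes every mut rescue library lay below every WT library, and CDC20 and PLK1 were nearest to WT in replicate 2. Such a separation was seen in 42 of the 54 members and in 27.9% of tested genes. For PLK1 it was narrow, with 2896 in mut rescue replicate 2 and 2906 in WT replicate 1. PLK1 was not called against WT (limma, adjusted p = 0.0592). With wt rescue replicate 1 as the only library of its group, the smaller shared error gave 6 members higher in mut rescue than in GAS41-KO (CCNA2, CDCA8, CENPN, KIF4A, NCAPH and PLK1) and 1 lower (NUF2).

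Set directly against normal GAS41, mut rescue was lower in 32 members and higher in 6, with a median log2 difference of -0.42. Of all tested genes 31.3% were called lower and 29.8% higher. Of the 83 other mitotic genes 55 were lower and 8 higher (median -0.33). Of the 38 G1/S genes 36 were lower and 0 higher (median -0.63). All mut rescue libraries lay below all wt rescue libraries in 30 members, against 30.2% of tested genes. The largest falls were MYBL2 (2.08-fold, log2 difference -1.003, SE 0.0762, adjusted p = 2.62e-08), CDC20 (1.82-fold) and NCAPH (1.79-fold). CCNB1 was 1.67-fold lower, PLK1 1.61-fold, AURKA 1.62-fold, with 1845, 1803 and 1627 normalized reads in mut rescue, AURKB 1.58-fold, with 1293, 1439 and 1126, and FOXM1 1.57-fold, with 1701, 1853 and 1695. Both transcription factors, all 5 anaphase genes and all 3 chromosomal passenger genes were lower. YEATS4 itself differed between the rescue groups, at 2482 ± 108 in mut rescue and 3253 ± 323 in wt rescue (1.31-fold lower, adjusted p = 0.000443), and the part of this difference in the others was not tested. The 6 members that were higher, KIF14, KIF18A, DEPDC1, CENPE, CENPF and ECT2, are all among the 16 with a split of over 0.5 log2 between wt rescue libraries. With wt rescue replicate 1 alone 40 members were lower and 1, KIF18A, was higher. KIF18A had 1942, 1492 and 2007 in mut rescue, above every WT and wt rescue library. Leaving out single libraries moved the number that were higher from 6 to 14 (without wt rescue replicate 1) or to 3 (without wt rescue replicate 2 or 3, or mut rescue replicate 1 or 3).

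Compared with WT, mut rescue was lower in 29 members and higher in 2, KIF18A and CDC25B, with a median of -0.28. Of all tested genes 22.9% were called lower and 23.5% higher. The largest falls were again MYBL2 (1.58-fold), MAD2L1 (1.53-fold) and CCNA2 (1.52-fold). KIF18A was 1.4-fold higher (adjusted p = 0.0223) and CDC25B 1.13-fold higher (adjusted p = 0.0486), with 5919, 6623 and 5718 normalized reads. Each of these calls upward was lost on leaving out any 1 WT library or mut rescue replicate 1. Leaving out mut rescue replicate 2, or not filtering on low reads, also ended the CDC25B call, and leaving out mut rescue replicate 3, or voom scaled to library totals, the KIF18A call.

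The comparisons of GAS41-KO with WT and of mut rescue with wt rescue share no library. They were fitted together, however, so each gene has the same SE in both. The calls in the 2 comparisons are therefore not independent. Of the 28 members lower in the first and the 32 lower in the second, 24 were common (85.7% of the first and 75% of the second). Over all 14505 tested genes 3852 were lower in the first and 4538 in the second, and 2826 were common (73.4% and 62.3%). The difference between these shares was not tested. They include MYBL2, FOXM1, CCNA2, CCNB1, PLK1, AURKA, AURKB, CDC20, ESPL1, PTTG1, BUB1, BUB1B, MAD2L1 and CENPA. The 4 called lower in GAS41-KO and not in mut rescue against wt rescue are CDK1, TTK, HMMR and DLGAP5, all among those low in wt rescue replicates 2 and 3. Across the 54 members the log2 differences of these 2 comparisons had a Pearson correlation of 0.52 and a Spearman correlation of 0.52. KIF18A was the member higher in both.

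**Figure D5:**
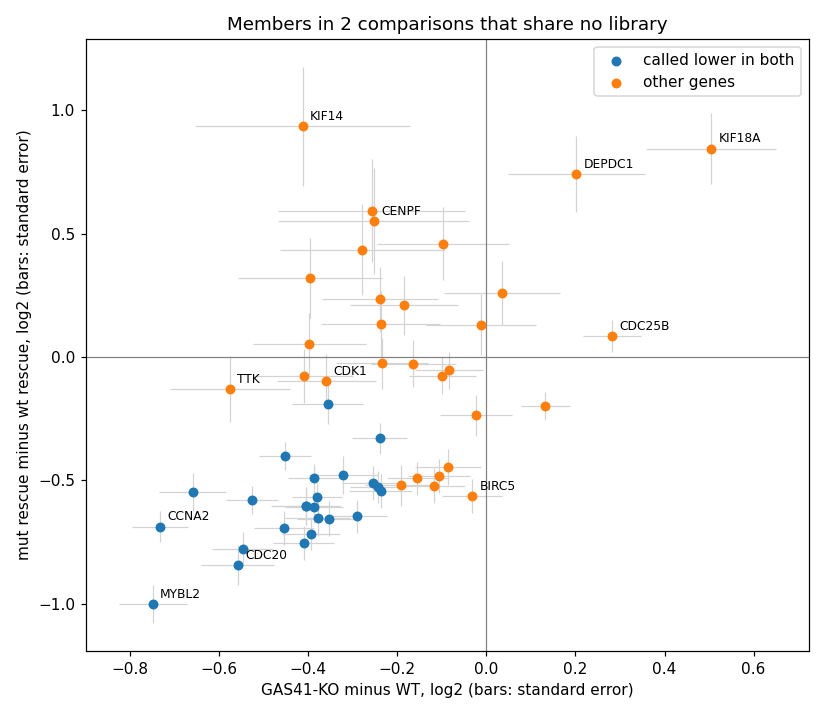
Log2 difference of each of the 54 members between GAS41-KO and WT (horizontal axis) and between mut rescue and wt rescue (vertical axis), with standard errors as grey bars. The 24 members called lower in both comparisons (blue) fill the lower left, KIF18A lies at the upper right, and KIF14, CENPF and DEPDC1 lie above 0 on the vertical axis.

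Of the 28 members lower in GAS41-KO 23 also fell with doxorubicin, which is 82.1% of the 28 and 46.9% of the 49 that fell with the drug. The drug lowered 49 of all 54 members, and 33.4% of all tested genes were called lower with it. The share common to both comparisons over all tested genes was not computed. The 5 lower in GAS41-KO and not called with the drug are CDK1, ESPL1, PTTG1, FOXM1 and MYBL2, which are all the members that the drug left uncalled. Across the 54 members the 2 sets of log2 differences had a Pearson correlation of -0.0688 (Spearman 0.0131). These come from separate experiments on different platforms, and a difference between the 2 responses was not tested for any gene. MYBL2, the largest fall in GAS41-KO at a log2 difference of -0.75, stood at 0.084 with doxorubicin. BIRC5, at -0.0313 in GAS41-KO, stood at -0.80. KIF18A, which rose by 0.50 in GAS41-KO, fell by 1.63 on the log2 scale with the drug. YEATS4 fell with doxorubicin as well, from 694, 612 and 698 to 173, 193 and 188 normalized reads (3.61-fold, adjusted p = 3.58e-09).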

How the data were processed

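RNA was measured in 18 of 44 samples of the series, and the 26 ChIP and input samples were not used here. Named in the submitters' processing notes, with no role or order, are TopHat2 2.1.0, Bowtie 1.0.1, HTSeq, DESeq2, Trimmomatic 0.36 and CASAVA 1.4 and the builds hg19 and mm9. The values the authors deposited are variance-stabilized and in log2 units, which was read from the values themselves: inverting the scale gave whole reads to within 0.01 for 100% of values and the size factors of each library. Log2 differences on this scale understate the folds of genes with few reads, so folds are ratios of mean normalized reads.

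Genes with at least 10 reads in at least 3 libraries were tested (14505 and 14195) in R 4.3.3 by limma 3.58.1, whose prior variance followed mean level. P-values were adjusted by Benjamini-Hochberg over every tested gene, and genes were called at an adjusted p under 0.05. The 12 GAS41 libraries were fitted together, and so were the 6 of the doxorubicin experiment. The scripts were tested on simulated data. Alternatives were no filter on low reads, quantile normalization, voom on recovered reads, a replicate block, fits of only the 2 groups compared, wt rescue replicate 1 alone, and each replicate left out. The fits of wt rescue replicate 1 alone for comparisons without that group were chosen after seeing the data. The members and all lists were chosen with earlier results of these data known. Named were all members, with library values for a fixed set and for the 3 largest called changes of each sign, up to 3 genes of each sign with the smallest p from the other lists, YEATS4 and CDKN1A.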

Additional observations from a re-analysis of the deposited data

How the results depend on the processing

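For doxorubicin the members called lower stayed at 48 or 49 under every alternative run, with 0 called higher. Fitted with only the 2 groups compared, GAS41-KO against WT gave 4 higher and 45 lower, and mut rescue against GAS41-KO 2 higher and 1 lower. With wt rescue replicate 1 alone the counts were 4 higher for GAS41-KO against WT, 6 higher and 1 lower for mut rescue against GAS41-KO, 1 higher for mut rescue against wt rescue, 3 lower for wt rescue against GAS41-KO, and 11 higher and 1 lower for wt rescue against WT. That setting also reversed 14 single differences in log2: against wt rescue CENPE (-0.0748), CENPF (-0.21) and ECT2 (-0.0524) in mut rescue; over GAS41-KO ANLN (0.11), CENPF (0.0300), ECT2 (0.0729), KIF15 (0.13) and NUF2 (0.0136); and over WT CDK1 (0.0118), HMMR (0.00426), KIF18A (0.0283), MKI67 (0.0194), NCAPG (0.0552) and NUF2 (0.00132). Quantile normalization turned BUB3 in wt rescue over GAS41-KO to -0.0603 and gave 11 members higher in mut rescue than in wt rescue. Voom scaled to library totals gave 1 lower for mut rescue against GAS41-KO and 1 higher for mut rescue against WT, and no filter on low reads gave 1 higher for mut rescue against WT. The cause of these moves was not tested, except that leaving out wt rescue libraries removes their spread from the shared error. TTTGAA was in 45.6% of member promoters when only the part before the start was searched.

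Leaving out single replicates gave 48 to 49 lower for doxorubicin, and 2 higher and 27 to 29 lower for GAS41-KO against WT. It gave 30 to 34 higher and 6 to 14 lower for wt rescue against GAS41-KO, 1 to 2 higher for mut rescue against GAS41-KO, 3 to 14 higher and 30 to 33 lower for mut rescue against wt rescue, 22 to 27 higher and 8 to 21 lower for wt rescue against WT, and 0 to 1 higher and 21 to 25 lower for mut rescue against WT. Whether replicate numbers pair the samples was not settled, and the main fits used no replicate block. Same-numbered libraries had correlations of their deviations of -0.39 to 0.48 over 18 pairs in the GAS41 experiment. They were -0.39 to 0.15 over 3 pairs in the doxorubicin experiment. In the GAS41 experiment all pairs of replicates 1 and all pairs of replicates 2 were positive (0.0036 to 0.48). Every negative value of a same-numbered pair there was between replicates 3. Differently numbered pairs spread as widely. In the GAS41 experiment they went from -0.53 (mut rescue 2 with wt rescue 1) to 0.49 (mut rescue 3 with wt rescue 1). In the doxorubicin experiment they went from -0.39 (DMSO 3 with Dox 2) to 0.42 (DMSO 3 with Dox 1). With the replicate block 2 members were higher in mut rescue than in GAS41-KO, and no other count moved by over 1.5 times. The planned comparison with protein length was not run.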
